A study of Homo sapiens with 24 samples.

Results

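The nuclear genes for the subunits of the mitochondrial respiratory chain and the ATP synthase were followed in LNCaP, an established human line that came from a lymph node metastasis of prostate cancer and responds to androgen. Members were the genes whose platform symbol begins with NDUFA, NDUFB, NDUFC, NDUFS, NDUFV, SDHA to SDHD, UQCR, COX4 to COX8 or ATP5, without assembly factors and pseudogenes. The rule found 82 genes on the array, and 75 of them had a probe that passed a detection p of 0.01 on 3 or more of the 24 arrays. These 75, among 10345 genes tested, comprised 34 genes of complex I, 3 of complex II, 8 of complex III, 12 of complex IV and 18 of complex V. The remaining 7 were NDUFA5, NDUFS6, COX4I2, COX6A2, COX6B2, COX7A1 and COX8C, whose probes were detected on 0 of 24 arrays. COX4I2 is known as a lung isoform, COX6A2 and COX7A1 as heart and skeletal muscle isoforms, and COX6B2 as a testis isoform.

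The study asked how O-GlcNAc transferase (OGT), the enzyme that attaches N-acetylglucosamine to nuclear and cytosolic proteins, bears on the MYC protein. Cells were plated onto the OGT inhibitor ST045849 or its vehicle, and in parallel onto siRNA targeting OGT (siOGT) or scrambled siRNA. RNA was taken after 12 and after 24 hours, which made 8 groups of 3 arrays, called biological replicates by the submitters. The sources used here state no dose for the compound. All groups were 1 cell line grown with serum, so the comparisons concern this line alone.

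The respiratory chain carries electrons from NADH (complex I) and succinate (complex II) through ubiquinone, complex III and cytochrome c to oxygen (complex IV), and pumps protons across the inner mitochondrial membrane. The ATP synthase (complex V) lets the protons flow back and makes ATP. Most subunits are encoded in the nucleus and imported, a core set is encoded in mitochondrial DNA, and the transcripts measured here are nuclear. Prostate cancer cells, unlike the zinc-accumulating normal prostate epithelium, are known for an active citric acid cycle and respiration.

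The median raw intensity of an array lay between 102 and 126, and 13993 to 16246 of 47323 probes were detected. The OGT transcript was lower with siOGT, at 7.19 ± 0.43 (SD, n = 3) against 8.90 ± 0.12 with scrambled siRNA at 12 hours and 7.06 ± 0.67 against 8.89 ± 0.25 at 24 hours, on the log2 intensity scale used throughout. KLK3, KLK2, TMPRSS2, FOLH1, KRT8, KRT18 and EPCAM, markers of luminal prostate cells, were detected on all 24 arrays, and KRT5, KRT14, COL1A1, PTPRC, CHGA and SYP, markers of basal, stromal, blood and neuroendocrine cells, on 0. The stromal markers VIM and ACTA2 were also detected on all 24 arrays. Along the first principal component (34.2% of the variance) the ST045849 arrays lay at 14.1 to 29.2 and all other arrays at -12.9 to -1.27. The vehicle arrays were split into 2 sets at their widest gap along it, and the split was carried to the other treatments by time and replicate number. The first set lay higher than the second with ST045849 and lower in the other treatments. With scrambled siRNA a gap inside the second set, from -6.34 to -2.62, was wider than that between the sets, from -9.34 to -6.34. In every treatment the first set held replicate 3 of 12 hours and replicates 1 and 3 of 24 hours, and the second held the other arrays. The sets thus cut across the labelled times, and each group compared with its control at the same time had the same number of arrays from each set. They were drawn from these same values, and ST045849 and vehicle arrays lay farther apart along this component in the first set. Sizes and adjusted p given by set below therefore describe the sets, mix both labelled times and do not test a set effect. In bulk RNA, a lower share of cells expressing a gene and less RNA per cell cannot be told apart.

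Few subunit genes changed with ST045849, and none was called with siOGT. With ST045849 at 12 hours, 0 of 75 members rose and 1 fell at an adjusted p under 0.05 (limma), or 1.33%, where 11% of all genes tested were called (5.73% rose and 5.28% fell). At 24 hours 5 members rose and 1 fell, or 8%, against 24.3% of all genes (13.6% rose and 10.7% fell). With siOGT no member was called at 12 hours, where 0.00967% of all genes were, nor at 24 hours, where 0.126% were. At an unadjusted p under 0.05 the members counted 4, 18, 0 and 4 in these 4 comparisons, where 25.5%, 36.1%, 4.29% and 12.8% of all genes passed. The difference between the members and other genes was not tested.

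The median log2 change of the 75 members was -0.01 with ST045849 at 12 hours and 0.04 at 24 hours, beside 0.00 and 0.03 over all genes. With siOGT the medians were -0.03 and -0.02, beside -0.01 and -0.01 over all genes. When the arrays were scaled by their medians in place of their quantiles, the median over all genes became -0.14 with ST045849 at 24 hours and 0.11 with siOGT at 24 hours. The members' medians were then -0.14 and 0.07, so the sign of these small medians depends on the scaling. The median size of a change, regardless of sign, was 0.09 for members and 0.17 for all genes with ST045849 at 12 hours, and 0.12 against 0.21 at 24 hours. These changes were also measured more tightly than most, with a median standard error of 0.09 for members and 0.14 over all genes. For 71 of the 75 members at 12 hours and 68 at 24 hours, the 95% confidence interval of the ST045849 effect lay within 1.5-fold either way, or 94.7% and 90.7%, where 69.2% and 60.5% of all genes had such an interval. With siOGT it lay within that bound for 73 members at each time, or 97.3%, against 84.1% and 77.2% of all genes.

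Most members had bright probes, a property of the signal that does not give a transcript's abundance. The brightest 2586 genes tested held 63 of the 75. Among these 2586 13.5% of genes were called with ST045849 at 12 hours and 28% at 24 hours, and of the 63 members there 0 and 4 were. Their median size of change was 0.13 for all 2586 and 0.08 for the 63 members at 12 hours, and 0.17 against 0.11 at 24 hours.

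**Figure D1:**
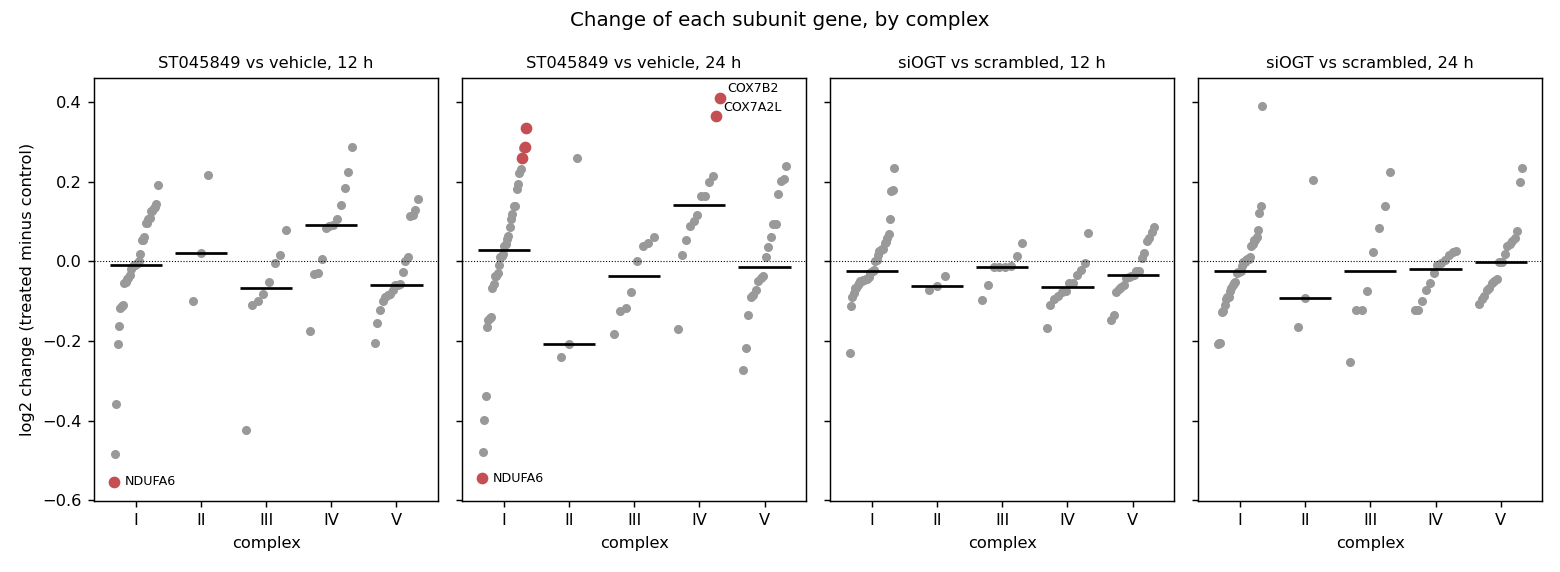
Each point is 1 of the 75 subunit genes, placed by complex (x axis), with its log2 change, treated minus control, on the y axis, in the 4 treatment comparisons; red points were called at an adjusted p under 0.05 and black bars are medians. Called points appear with ST045849 (1 at 12 hours, 6 at 24 hours), and NDUFA6 is the lowest point at both times.

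The 12 complex IV genes, which encode the nuclear subunits of cytochrome c oxidase and its close relatives, had a median change of 0.09 with ST045849 at 12 hours and 0.14 at 24 hours, and 9 and 11 of them were higher than in vehicle. With siOGT at 12 hours 11 of the same 12 were lower than in scrambled cells, with a median of -0.06, and at 24 hours 8 were lower, with a median of -0.02. Under median scaling 7 and 6 of the 12 were higher than in vehicle, and 9 and 10 lay above the median of all genes. Complex I had medians of -0.01, 0.03, -0.03 and -0.03 in the same order. Complex III had medians of -0.07, -0.04, -0.01 and -0.03, and complex V of -0.06, -0.01, -0.03 and -0.00. The medians of the 3 complex II genes, 0.02, -0.21, -0.06 and -0.09, rest on few genes. These are descriptions of each list and were not tested against each other.

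Averaged over its 12 members, complex IV deviated from its 24-array mean by 0.00, 0.10 and 0.09 on the 3 ST045849 arrays of 12 hours and by 0.12, 0.06 and 0.11 on those of 24 hours. The vehicle arrays stood at 0.01, 0.01 and -0.07 at 12 hours and at -0.10, 0.03 and -0.07 at 24 hours. The groups thus overlapped at 12 hours, where ST045849 replicate 1 lay among the vehicle arrays, and did not overlap at 24 hours. Read by array set, the first set held ST045849 arrays at 0.09, 0.12 and 0.11 and vehicle arrays at -0.07, -0.10 and -0.07, without overlap. In the second set the values were 0.00, 0.10 and 0.06 against 0.01, 0.01 and 0.03, and they overlapped. The difference between the sets was not tested.

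**Figure D2:**
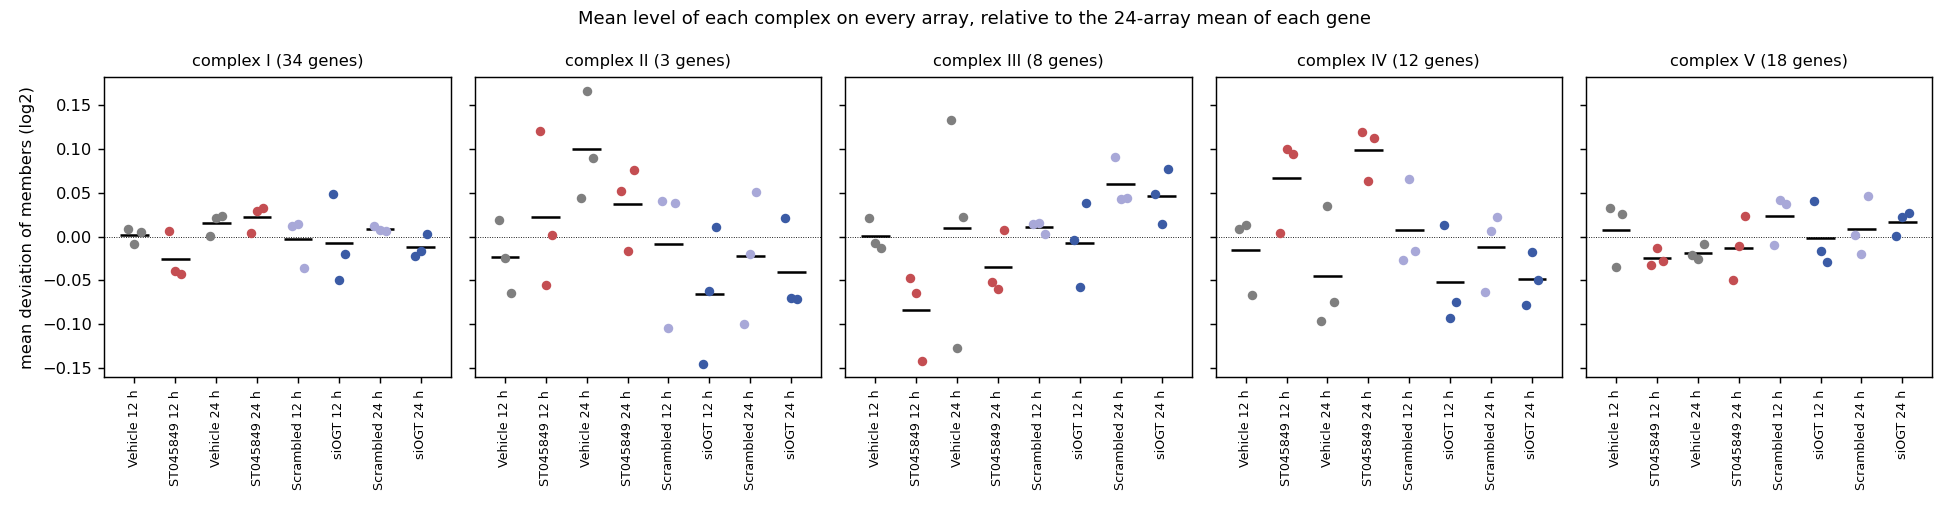
Each point is 1 array, and its y value is the mean, over the members of a complex, of each gene's log2 level minus that gene's mean over the 24 arrays; black bars are group means of 3 arrays. All points lie within about 0.2 of 0, and the complex IV panel has its ST045849 arrays at 24 hours above their vehicle arrays.

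NDUFA6, an accessory subunit of complex I of the LYR protein family that binds the mitochondrial acyl carrier protein NDUFAB1, was the member called at both times. Its level was 9.23, 9.30 and 9.45 on the vehicle arrays of 12 hours and 8.81, 8.88 and 8.63 on the ST045849 arrays. At 24 hours it was 9.52, 9.08 and 9.31 with vehicle and 8.69, 8.91 and 8.67 with ST045849. Every ST045849 array was below every vehicle array of its time. At 12 hours NDUFA6 fell by 0.55 ± 0.11 (SE), to 68.1% of the vehicle level, with an adjusted p of 0.00211. The fall at 24 hours was -0.55 ± 0.11, to 68.5% of vehicle, with an adjusted p of 0.00102. The exact permutation test of 3 against 3 arrays gave 0.1 at each time, two-sided, the smallest p it allows.

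The fall of NDUFA6 was called under all 18 alternatives tried at each time. When each treatment's second set was read as 12 hours and its first set as 24 hours, in place of the labels, NDUFA6 fell by 0.34 in the second set and by 0.76 in the first, with adjusted p of 0.00873 and 2.44e-07. The difference between the sets was not tested. On the scrambled arrays the level lay between 9.22 and 9.38. With siOGT it was 9.34, 9.25 and 9.24 at 12 hours and 9.04, 9.27 and 9.21 at 24 hours, overlapping the scrambled arrays. The siOGT change was -0.05 at 12 hours (95% confidence interval -0.27 to 0.17) and -0.13 at 24 hours (-0.35 to 0.09). The difference between the ST045849 and the siOGT effect was -0.50 at 12 hours and -0.42 at 24 hours, and neither passed the test, with adjusted p of 0.0904 and 0.0640.

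Promoter windows from RefSeq (GRCh38.p14), 250 bases before to 50 after the start site, were matched for 63 of the 75 members. They are shown for NDUFA6, called at both times, for NDUFA12 and NDUFS7, whose 24-hour effects differed between the inhibitor and the siRNA, and for SDHA, whose probes differed in the size of their change. Capitals mark matches, on either strand, to motifs of factors known to act on respiratory genes: NRF1 (GCGCANGCG), ETS factors such as GABPA (CCGGAAG) and YY1 (AANATGGCG), and to the E-box bound by MYC and related factors (CACGTG). NDUFA6 is at chr22:42090723-42091022 on the minus strand, NDUFA12 at chr12:95003648-95003947 on the minus strand, NDUFS7 at chr19:1383657-1383956 on the plus strand and SDHA at chr5:218070-218369 on the plus strand, each 5′ to 3′ on the gene's strand.
NDUFA6: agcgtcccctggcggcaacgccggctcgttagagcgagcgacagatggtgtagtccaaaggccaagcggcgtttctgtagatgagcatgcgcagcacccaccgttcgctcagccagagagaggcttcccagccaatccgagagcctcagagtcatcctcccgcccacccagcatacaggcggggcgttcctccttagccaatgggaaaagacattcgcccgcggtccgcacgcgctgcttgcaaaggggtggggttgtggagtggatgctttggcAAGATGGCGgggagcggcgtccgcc
NDUFA12: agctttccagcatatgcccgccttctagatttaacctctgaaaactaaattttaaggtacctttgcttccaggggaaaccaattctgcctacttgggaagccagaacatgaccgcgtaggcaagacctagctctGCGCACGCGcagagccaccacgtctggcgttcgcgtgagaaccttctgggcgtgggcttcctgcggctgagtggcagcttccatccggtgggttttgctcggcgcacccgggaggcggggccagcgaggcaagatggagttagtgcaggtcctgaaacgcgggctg
NDUFS7: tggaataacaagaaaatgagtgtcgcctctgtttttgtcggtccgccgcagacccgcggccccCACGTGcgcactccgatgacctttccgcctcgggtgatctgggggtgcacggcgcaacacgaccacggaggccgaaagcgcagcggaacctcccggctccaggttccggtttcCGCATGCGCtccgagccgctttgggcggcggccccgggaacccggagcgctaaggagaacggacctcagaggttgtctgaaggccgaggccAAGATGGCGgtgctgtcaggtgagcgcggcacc
SDHA: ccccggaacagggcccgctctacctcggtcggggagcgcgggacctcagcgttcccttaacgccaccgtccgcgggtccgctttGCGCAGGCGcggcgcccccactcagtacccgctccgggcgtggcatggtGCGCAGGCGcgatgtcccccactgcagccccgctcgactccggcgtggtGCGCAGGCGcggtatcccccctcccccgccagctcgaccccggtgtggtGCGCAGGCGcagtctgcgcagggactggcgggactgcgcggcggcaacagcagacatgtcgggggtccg

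The NDUFA6 window held 1 match, to YY1, at base 26 counted from the start site as 1, and none to the other 3 motifs. The NDUFA12 window held 1 NRF1 match at base -116, and that of NDUFS7 held an E-box at base -187, an NRF1 match at base -74 and a YY1 match at base 18. SDHA had 4 NRF1 matches, at bases -166, -117, -68 and -19. The NRF1 motif was in 20 of the 63 member windows, or 31.7%, against 16.1% of the windows of genes tested and 8.0% of all promoters. ETS and YY1 matches were in 30.2% and 20.6% of member windows, against 20.4% and 7.5% among genes tested and 10.7% and 3.4% among all promoters. The E-box was in 11.1%, 10.7% and 7.4%. For the more general elements, CCAAT was in 34.9%, 38.3% and 35.7%, and the Sp1 box GGGCGG in 60.3%, 70.2% and 44.6%. A match describes the letters of the window and is not a bound site.

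**Figure D3:**
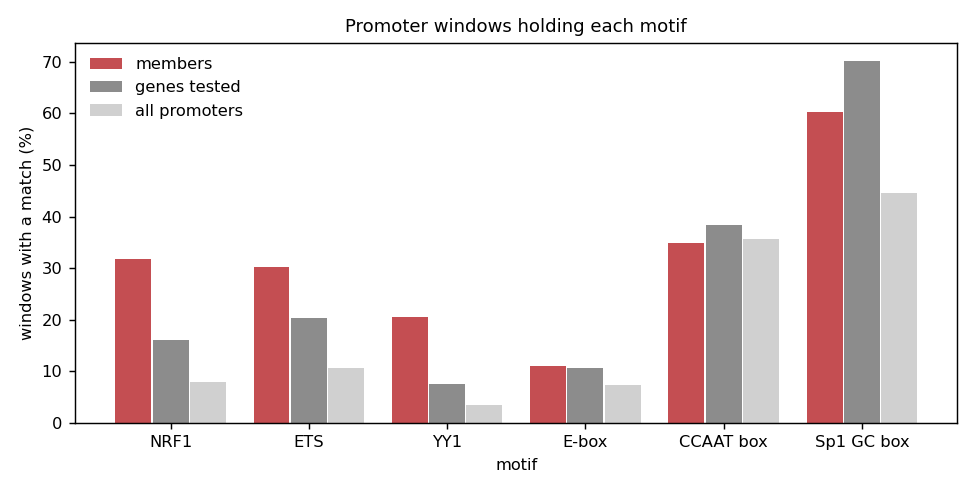
Bars give the percent of promoter windows with at least 1 match to each motif (x axis) among 63 member windows, 8425 windows of genes tested and 27305 windows in all. Members exceed the genes tested for NRF1, ETS and YY1 and not for the CCAAT and Sp1 elements.

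The 5 members that rose with ST045849 at 24 hours each rose by less than 1.5-fold. COX7A2L, a protein related to complex IV that joins complexes III and IV into supercomplexes, was at 10.43, 10.67 and 10.50 with vehicle and at 11.08, 10.72 and 10.91 with ST045849. It rose by 0.36 ± 0.11 (adjusted p = 0.0155), and the groups did not overlap, though the lowest ST045849 array was close to the highest vehicle array. At 12 hours its levels of 10.58, 10.67 and 10.60 with vehicle and 10.72, 10.92 and 11.08 with ST045849 also did not overlap, and the change of 0.29 was not called (adjusted p = 0.0857). COX7B2, a testis-type isoform of subunit COX7B, was at 7.19, 7.58 and 7.35 with vehicle and at 7.77, 7.67 and 7.91 with ST045849 at 24 hours, and rose by 0.41 ± 0.13 (adjusted p = 0.0242). The siOGT changes were -0.09 and 0.02 for COX7A2L, and -0.08 and 0.03 for COX7B2, at 12 and 24 hours.

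The other 3 rises at 24 hours were in accessory subunits of the membrane arm of complex I or close to it. NDUFB8 was at 11.16, 11.21 and 11.15 with vehicle and at 11.27, 11.52 and 11.52 with ST045849, and rose by 0.26 ± 0.09 (adjusted p = 0.0318). For NDUFA11 the vehicle levels were 10.97, 11.30 and 10.91 and the ST045849 levels 11.42, 11.32 and 11.45, a rise of 0.33 ± 0.11 (adjusted p = 0.0355). NDUFA13, also known as GRIM-19, was at 10.10, 10.16 and 10.10 with vehicle and at 10.36, 10.47 and 10.39 with ST045849, a rise of 0.29 ± 0.10 (adjusted p = 0.0369). Within the time the groups did not overlap for any of the 3, yet NDUFA13 stood at 10.32, 10.48 and 10.25 on the vehicle arrays of 12 hours, overlapping the ST045849 arrays of 24 hours.

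None of these 5 rises was called when arrays were scaled by their medians or when the 2 groups were fitted alone. Under median scaling, relative to the median of all genes in that setting, the changes were 0.31 for COX7A2L, 0.35 for COX7B2, 0.17 for NDUFB8, 0.25 for NDUFA11 and 0.23 for NDUFA13. NDUFA6 was at -0.63 on the same footing and stayed called. Leaving out single arrays also ended calls: without vehicle replicate 1 or without vehicle replicate 3 NDUFA6 was the 1 member called at 24 hours, without ST045849 replicate 1 it was NDUFA6 and NDUFB8, and without ST045849 replicate 3 NDUFA6 and COX7A2L. By array set, a split drawn from these same values and so a description only, COX7A2L differed by 0.14 in the second (adjusted p = 0.339). In the first it rose by 0.51 (adjusted p = 8.69e-05). COX7B2 and NDUFA11 were also called in the first set, at 0.47 and 0.33, and NDUFB8 and NDUFA13 were not, at 0.20 (adjusted p = 0.0565) and 0.19 (adjusted p = 0.0977).

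**Figure D4:**
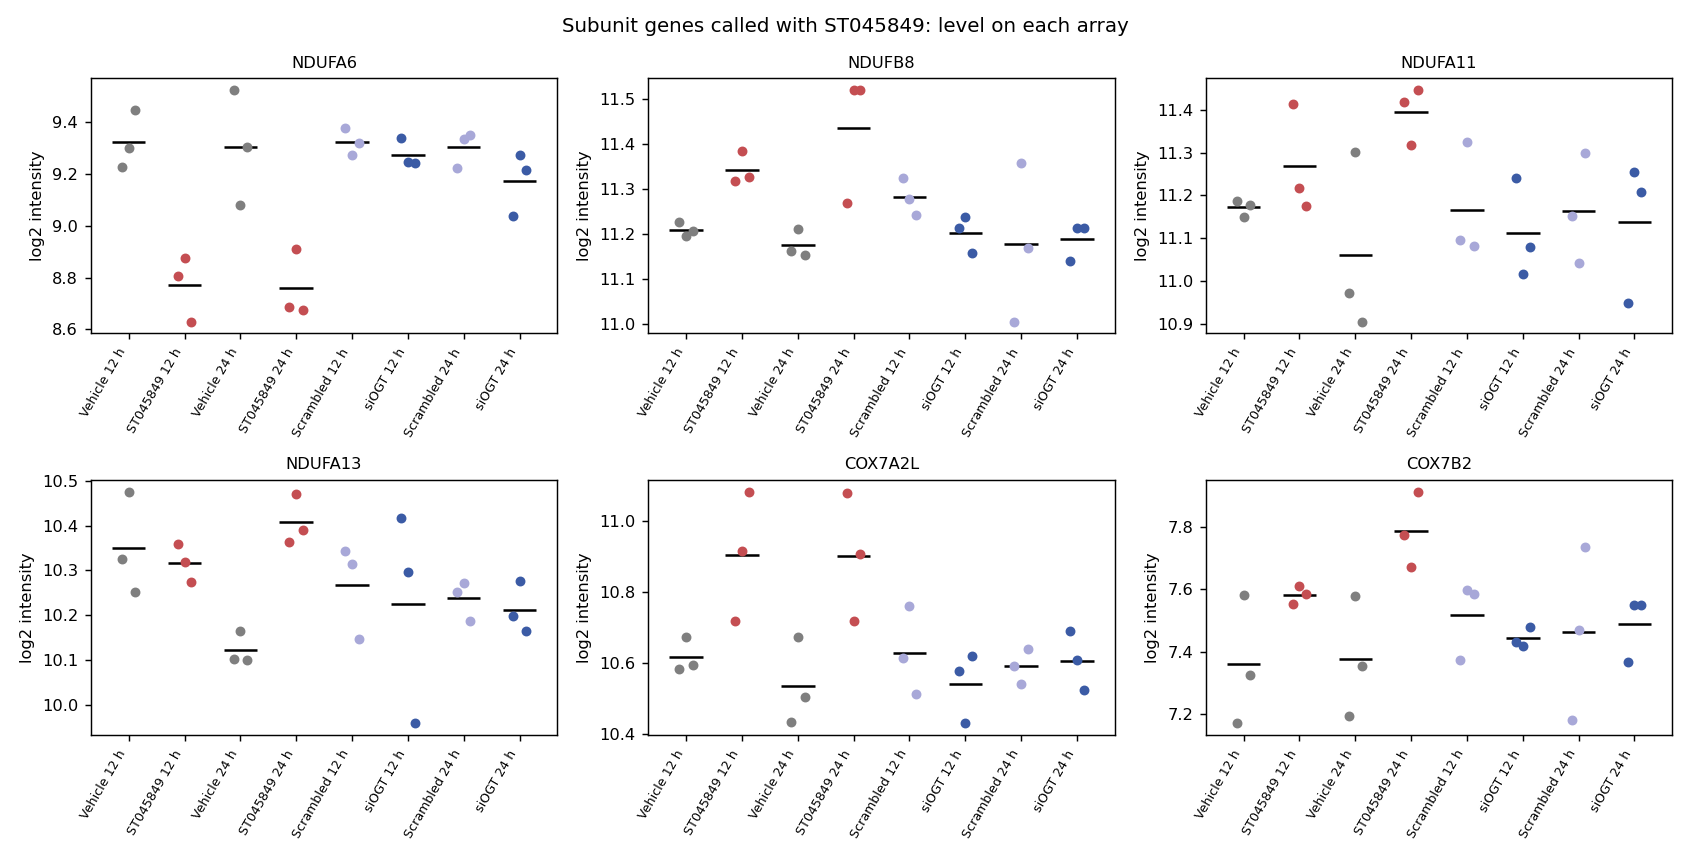
Log2 intensity (y axis) of the 6 subunit genes called with ST045849, on each of the 24 arrays by group (x axis); points are arrays and black bars are means of 3. NDUFA6 has all 6 ST045849 arrays below 9 and all other arrays above 9, and the other 5 genes have their ST045849 arrays of 24 hours above the vehicle arrays of 24 hours.

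Averaging the ST045849 effect over both times, 7 members rose and 3 fell, or 13.3% of 75, where 32.4% of all genes tested were called (17.7% rose and 14.7% fell). NDUFA6 fell by 0.55, NDUFB1 by 0.48 and NDUFC2 by 0.35, with adjusted p of 1.56e-05, 0.00805 and 0.0485. NDUFB1 and NDUFC2 are small accessory subunits of the membrane arm, and both probes were dim: NDUFC2 was detected on 1 of 3 ST045849 arrays of 12 hours and NDUFB1 on 2. NDUFB1 was at 6.23, 6.47 and 5.94 with vehicle and 5.87, 5.42 and 5.88 with ST045849 at 12 hours, and at 6.36, 6.21 and 6.30 against 5.50, 6.17 and 5.76 at 24 hours. Its groups did not overlap at either time, and within a time its change was not called, at -0.48 each (adjusted p = 0.103 and 0.0673). By array set it was -0.48 in the second (adjusted p = 0.106) and -0.49 in the first (adjusted p = 0.0450). The rises were COX7A2L (0.33), COX7B2 (0.32), SDHC (0.24), NDUFA11 (0.21), NDUFA3 (0.21), NDUFB8 (0.20) and ATP5MC2 (0.18). No member had an ST045849 effect that differed between the times, nor did any of the 10345 genes (0%). This contrast takes the times from the labels, which the array sets cut across, so it does not compare the sets. At an unadjusted p under 0.05, 3 members and 6.47% of all genes differed between the labelled times. Over both times the siOGT effect was called for 0 members and for 0.193% of all genes, and at an unadjusted p under 0.05 for 3 members and 13.2%.

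Members were also counted by whether the 3 treated arrays lay wholly on 1 side of the 3 controls. With ST045849 at 12 hours 8 members lay wholly above and 7 wholly below vehicle, where 14% and 14.8% of all genes did. At 24 hours 22 lay above and 10 below, against 22.7% and 17.5%. The share of all genes that lay on the same side at both times was not counted. Among the members ATP5F1E, ATP5IF1, COX4I1, COX7A2L, NDUFB8 and NDUFS7 were above both times, and COX5A, NDUFA6 and NDUFB1 below. Of these, COX4I1, the main isoform of a complex IV subunit, was at 13.22, 13.25 and 13.11 with vehicle and 13.27, 13.29 and 13.30 with ST045849 at 12 hours, and at 13.09, 13.18 and 13.23 against 13.37, 13.30 and 13.32 at 24 hours. Those differences, 0.09 and 0.16, were not called (adjusted p = 0.478 and 0.116). In the first array set COX4I1 rose by 0.19 (adjusted p = 0.0445) and COX5B, a zinc-binding complex IV subunit, by 0.29 (adjusted p = 0.0183), and in the second neither was called, at 0.07 each. COX5A, another nuclear complex IV subunit, was lower by contrast, by 0.18 and 0.17 (adjusted p = 0.253 and 0.204).

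Other named subunits were not called with ST045849 at either time. NDUFS1, an iron-sulfur subunit of the electron-input arm of complex I, changed by -0.21 and 0.28 with ST045849 at 12 and 24 hours (adjusted p = 0.488 and 0.248), from a dim probe detected on 1 of 3 ST045849 arrays at 12 hours. NDUFV1, which binds NADH and flavin, changed by 0.14 and 0.11, and NDUFA9 by -0.04 and -0.01. UQCRC1, a core protein of complex III, had a change of -0.00 (95% confidence interval -0.18 to 0.18) and of 0.05 (-0.13 to 0.23). ATP5F1B, the catalytic beta subunit of the ATP synthase, changed by -0.07 (-0.23 to 0.08) and -0.04 (-0.19 to 0.12), and ATP5F1A, the alpha subunit, by -0.12 (-0.29 to 0.04) and -0.05 (-0.21 to 0.11). The intervals of UQCRC1, ATP5F1A and ATP5F1B leave room for changes of up to about 0.29 on this scale. The corresponding siOGT changes of these 3 genes lay between -0.07 and 0.08.

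The 3 genes ATP5MC1, ATP5MC2 and ATP5MC3 encode the same mature c subunit of the proton-carrying ring of the ATP synthase. ATP5MC1 changed by -0.20 and -0.07 with ST045849 at 12 and 24 hours, ATP5MC2 by 0.13 and 0.24, and ATP5MC3 by -0.15 and -0.27. None was called at a single time, the lowest adjusted p being 0.0557 for ATP5MC2 at 24 hours. Read by array set, ATP5MC2 rose by 0.31 (adjusted p = 0.00521) and ATP5MC3 fell by 0.47 (adjusted p = 0.00516) in the first set, and in the second they were at 0.06 and 0.05, not called. ATP5IF1, the inhibitor of ATP hydrolysis by the synthase, was at 10.81, 10.93 and 10.89 with vehicle and 11.02, 11.02 and 11.08 with ST045849 at 12 hours, and the groups did not overlap. Its change of 0.16 was not called (adjusted p = 0.282), and its other probe gave -0.00.

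In complex II, SDHC, the cytochrome b subunit that anchors the enzyme to the membrane, was higher with ST045849 by 0.22 and 0.26 and SDHD, the other anchor, lower by 0.10 and 0.24, with adjusted p from 0.122 to 0.622. By array set, SDHC differed by -0.00 in the second and rose by 0.48 in the first (adjusted p = 0.000723). SDHA, the flavoprotein that oxidises succinate, was at 9.65, 9.50 and 9.65 with vehicle and at 9.27, 9.49 and 9.42 with ST045849 at 24 hours. The groups did not overlap, and the change of -0.21 was not called (adjusted p = 0.128). A second SDHA probe changed by -0.61 in the same comparison, with an adjusted p of 0.00209 over all kept probes, and averaging both probes gave -0.41 (adjusted p = 0.00339).

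Probes of the same gene differed in sign or in size. Of 24 other probes of 21 members, 16 had the sign of the probe used with ST045849 at 12 hours, 13 at 24 hours, and 11 and 18 with siOGT. As with SDHA, the sign agreed and the size differed in NDUFB4, where a second probe, detected on 8 of 24 arrays, changed by 0.62 with ST045849 at 12 hours (adjusted p = 0.0269 over all kept probes) and the probe used by 0.14. The sign differed in UQCRH. The second UQCRH probe changed by -0.42 at 24 hours and the probe used by 0.06. UQCRH and UQCRHL are near-identical copies, so their probes may not tell them apart. NDUFA6 and the 5 genes that rose at 24 hours had 1 kept probe each.

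Other wide changes with ST045849 were not called. At 12 hours they were NDUFA3 (0.19) in complex I, UQCR11 (-0.42) and UQCRB (0.08) in complex III and ATP5MC1 in complex V. UQCR11 was at 7.56, 7.59 and 7.49 with vehicle and at 7.54, 7.07 and 6.76 with ST045849, so 1 array lay among the vehicle arrays (adjusted p = 0.129). Without that array, ST045849 replicate 1, UQCR11 was called at -0.63 (adjusted p = 0.0251), and NDUFC2 and COX7A2L were called too. At 24 hours UQCRHL was at -0.18 and UQCRH at 0.06, and NDUFV3, a small subunit of the NADH-binding module, at -0.40 (adjusted p = 0.117).

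With siOGT the members' changes ran from -0.23 (NDUFV3) to 0.23 (NDUFC2) at 12 hours and from -0.25 (UQCR11) to 0.39 (NDUFB9) at 24 hours. NDUFB9, an accessory LYR-family subunit of complex I, was at 10.34, 10.53 and 10.22 with scrambled siRNA and at 10.91, 10.64 and 10.71 with siOGT at 24 hours. The groups did not overlap, and the change of 0.39 ± 0.12 was not called (adjusted p = 0.185). In the first array set it rose by 0.52 (adjusted p = 0.0093). Scrambled cells were lower than vehicle cells in NDUFB9 at 24 hours by 0.29 (adjusted p = 0.296). In the other complexes the widest siOGT changes at 12 hours were SDHD (-0.07), UQCRQ (-0.10), COX6C (-0.17) and ATP5MG (-0.15), and at 24 hours SDHD (0.20), UQCRC2 (0.22) beside UQCR11, COX8A (-0.12) and ATP5PB (0.23), none of them called. At 12 hours 0 members lay wholly above and 3 wholly below scrambled, where 3.99% and 4.76% of all genes did, and at 24 hours 5 and 6, where 7.35% and 9.32% did. Scrambled and vehicle cells differed in 0 members at either time, where 0% of all genes at 12 hours and 0.087% at 24 hours were called, and in 2 and 6 members at an unadjusted p under 0.05, where 4.09% and 12.9% of all genes did.

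Tested directly, the ST045849 effect and the siOGT effect differed for 2 members at 24 hours, or 2.67%, where 16.1% of all genes tested differed. They differed for 0 members at 12 hours, where 2% of all genes did, and for 4 members and 16% of all genes at an unadjusted p under 0.05. Both members called at 24 hours were complex I genes: NDUFS7, an iron-sulfur subunit next to the site of ubiquinone reduction, and NDUFA12, an accessory subunit of the arm that protrudes into the matrix. NDUFS7 was at 10.37, 10.40 and 10.51 with vehicle, 10.56, 10.56 and 10.57 with ST045849, 10.67, 10.57 and 10.48 with scrambled siRNA and 10.37, 10.31 and 10.43 with siOGT. ST045849 arrays lay above vehicle and siOGT arrays below scrambled, without overlap. The effects were 0.14 and -0.21, and their difference 0.34 ± 0.10 (adjusted p = 0.0249), though neither effect alone was called.

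NDUFA12 was at 11.73, 11.71 and 11.76 with vehicle, 11.94, 11.88 and 11.93 with ST045849, 11.92, 11.83 and 11.95 with scrambled siRNA and 11.68, 11.71 and 11.69 with siOGT. Here too the groups did not overlap within each pair, and the scrambled arrays stood as high as the ST045849 arrays. The effects were 0.18 and -0.21, and their difference 0.39 ± 0.11 (adjusted p = 0.0250). Scrambled against vehicle was 0.17 for NDUFA12 (adjusted p = 0.393) and 0.15 for NDUFS7 (adjusted p = 0.374) at this time. At 12 hours the differences between the effects were 0.10 for NDUFA12 and 0.04 for NDUFS7. Both calls were lost under median scaling, at 0.16 and 0.06 (adjusted p = 0.592 and 0.836). The median of all genes was then -0.139 with ST045849 and 0.105 with siOGT at 24 hours, and these 2 differences are not taken relative to it. The NDUFS7 call was also lost with the compared groups alone (adjusted p = 0.0743) and with the time read from the array set, at 0.22 (adjusted p = 0.168).

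**Figure D5:**
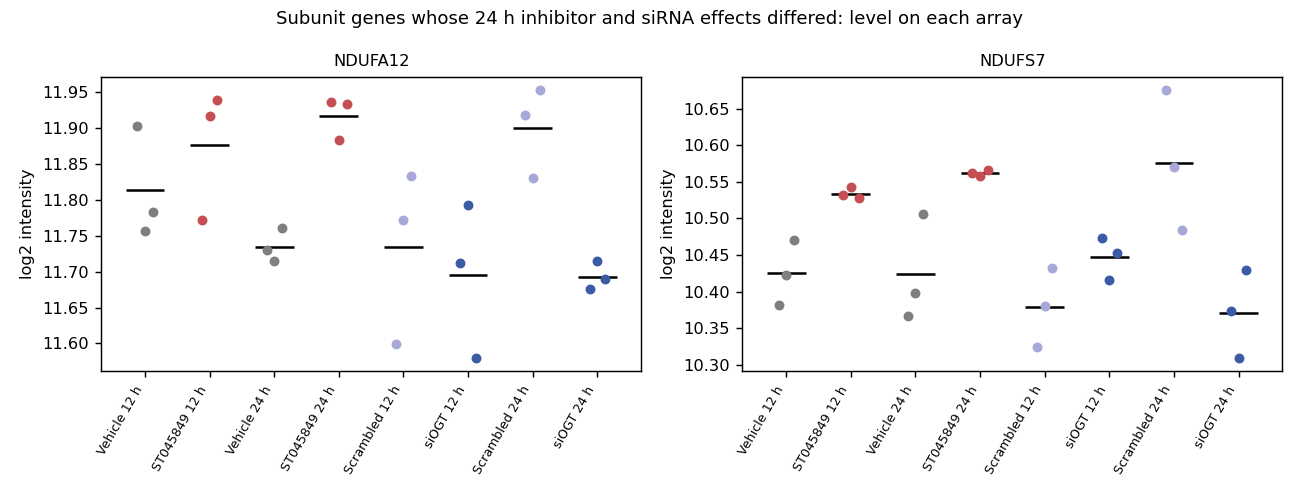
Log2 intensity (y axis) of NDUFA12 and NDUFS7 on each of the 24 arrays by group (x axis); points are arrays and black bars are means of 3. At 24 hours the ST045849 arrays lie above the vehicle arrays and the siOGT arrays below the scrambled arrays in both genes.

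Related genes outside the rule were read from lists of the pathway. With ST045849 at 12 hours, 10 of 77 mitochondrial ribosomal protein genes fell and 0 rose, where 5.28% of all genes fell and 5.73% rose. For 24 hours these counts were 22 and 1, where 10.7% of all genes fell and 13.6% rose. The median changes of the 77 were -0.11 and -0.12, beside -0.01 and 0.04 for the subunit genes. With siOGT 0 of the 77 were called at either time, where 0.00967% and 0.126% of all genes were. At an unadjusted p under 0.05, 2 and 4 passed with siOGT, where 4.29% and 12.8% of all genes did. Under median scaling 3 fell with ST045849 at 12 hours and 29 at 24 hours, where 2.54% and 14.9% of all genes fell. The difference between the 2 lists was not tested. The smallest p at 12 hours belonged to MRPS12 (-0.41), MRPS11 (-0.45), MRPL50 (-0.39) and MRPL17 (-0.42), and at 24 hours to MRPL4 (-0.51), MRPL18 (-0.65), MRPL50 (-0.43) and MRPL12 (-0.44).

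Of the 18 complex I assembly factors 0 were called with either treatment at either time. Of all genes, 11% and 24.3% were called with ST045849 at 12 and 24 hours, and 0.00967% and 0.126% with siOGT. At an unadjusted p under 0.05, 1 and 2 of them passed with ST045849, against 25.5% and 36.1% of all genes, and 0 and 2 with siOGT, against 4.29% and 12.8%. Under median scaling 1 of them, NUBPL, a factor for the iron-sulfur clusters of complex I, fell by 0.55 with ST045849 at 24 hours (adjusted p = 0.0138). In that comparison 14.9% of all genes fell. Of 35 assembly factors of complexes II to V, 2 fell at 12 hours with ST045849, where 5.28% of all genes fell, and 5 rose and 3 fell at 24 hours, where 13.6% rose and 10.7% fell. Under median scaling 0 of the 35 were called at 12 hours, where 2.02% of all genes rose and 2.54% fell. At 24 hours 0 rose and 6 fell in that setting, where 3.5% of all genes rose and 14.9% fell. TMEM70, which helps to assemble the ATP synthase, fell by 0.49 and 0.68 at the times in order, with adjusted p of 0.0104 and 0.000359, and under median scaling it was called at 24 hours and not at 12 hours (adjusted p = 0.000855 and 0.0722). COX20, a chaperone of complex IV subunit 2, rose by 0.54 at 24 hours (adjusted p = 0.00244), and was not called under median scaling, at 0.33 (adjusted p = 0.169).

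Among 10 regulators of respiratory genes 1 fell with ST045849 at 12 hours and 2 at 24 hours, where 5.28% and 10.7% of all genes fell. Of the 10 regulators 0 rose, where 5.73% and 13.6% of all genes rose. POLRMT, the mitochondrial RNA polymerase, fell by 0.32 at 12 hours (adjusted p = 0.0464), a call lost under median scaling, at -0.37 (adjusted p = 0.199). At 24 hours PPRC1, a coactivator of the PGC-1 family, fell by 0.43 (adjusted p = 0.000982) and TFB2M, a mitochondrial transcription factor, by 0.47 (adjusted p = 0.00531). Under median scaling these 2 stayed called, with GABPB1 and TFAM, so that 4 of the 10 fell at 24 hours. In that setting 14.9% of all genes fell at this time. Of 20 genes that feed electrons into the chain 2 rose and 1 fell at 12 hours, where 5.73% of all genes rose and 5.28% fell, and 1 fell at 24 hours, where 10.7% did. DHODH, the pyrimidine-synthesis enzyme that reduces ubiquinone, fell by 1.06 and 0.80 at 12 and 24 hours, with adjusted p of 0.00236 and 0.00766, and was called at both times under median scaling. ETFDH, which passes electrons from fat oxidation to ubiquinone, rose by 0.50 at 12 hours (adjusted p = 0.00740), and SUCLG2, a subunit of succinyl-CoA ligase, by 0.33 (adjusted p = 0.0422). Neither rise was called under median scaling, at 0.41 and 0.25 (adjusted p = 0.172 and 0.240). CYC1, the cytochrome c1 subunit of complex III whose symbol lies outside the rule, fell by 0.28 at 24 hours (adjusted p = 0.0358), and VDAC1, the outer-membrane channel, by 0.33 (adjusted p = 0.00335). Each was 1 of 5 in its list, where 10.7% of all genes fell, and both were called under median scaling. The subunits encoded in mitochondrial DNA were not analysed here.

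The genes outside the list whose levels over the 24 arrays most resembled the mean profile of the 75 members were MED19 (Pearson r = 0.766), GTF2B (0.723), RIIAD1 (0.715) and DAD1 (0.678). The mean profile itself was narrow, from -0.05 to 0.04 around its 24-array mean, and these genes were picked as the highest of all outside the list. These are descriptions over arrays that share the same groups and normalization, and shared regulation was not tested.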

How the data were processed

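Total RNA of 24 LNCaP samples was hybridised to Illumina arrays. The authors deposited, per the file headers, raw probe intensity values and detection p-values per array, and a second table of processed intensity values, whose normalization none of the sources used here states and which served as an alternative. The submitters' processing notes name GenomeStudio 2011.1. No source used here names the slides.

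Raw intensities were background-corrected from the detection p-values and quantile-normalized with neqc (limma 3.58.1, R 4.3.3, data.table version 1.17.8, offset 16) and taken to log2, so changes of dim genes are understated. Probes detected at p under 0.01 on 3 or more arrays were kept (17633 of 47323), and the brightest probe stood for a gene. Arrays limit the precision by their number. No array pair was identical (0).

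A single limma fit of 8 group means gave all contrasts, with Benjamini-Hochberg adjustment over 10345 genes in each, and an adjusted p under 0.05 was called. The p-values measure the spread between these samples. Named were called members, the largest rise and fall per complex, central subunits and isoforms, members with disagreeing probes, up to 4 genes per pathway list and the 4 most similar profiles. Other related genes named were chosen after their values were seen. Members and lists were chosen with earlier results of these data known. The fit was tested on simulated data. Replicate numbers were not fitted as pairs in the main fit. Same-number correlations ran from -0.07 to 0.09 with ST045849 and from 0.05 to 0.27 with siOGT. Arrays of the same time and number shared an array set. The 6 vehicle arrays were split at their widest gap along the first principal component, and the split was carried to the other treatments by time and replicate number. Alternatives were other background, scaling, filter and probe rules, the processed values, array weights, replicate and set blocks, the time from the set, the compared groups alone and each array left out. Every probe on its own, and median scaling for the pathway lists, were added after seeing the data.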

Additional observations from a re-analysis of the deposited data

Results flagged for a closer look

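In 2 subunit genes the effect of the inhibitor differed from that of the siRNA at 24 hours by a direct test of the difference (limma, adjusted over all genes tested). The ST045849 effect minus the siOGT effect was 0.39 ± 0.11 on the log2 scale for NDUFA12 (adjusted p = 0.0250), with 3 of 3 ST045849 arrays above vehicle and 3 of 3 siOGT arrays below scrambled. For NDUFS7 it was 0.34 ± 0.10 (adjusted p = 0.0249), with the same arrangement of arrays. Such a difference was called in 16.1% of all genes tested. The NDUFA12 difference was called in 20 of 24 alternatives and that of NDUFS7 in 18 of 24. Under median scaling they were 0.16 (adjusted p = 0.592) and 0.06 (adjusted p = 0.836). In that setting the median of all genes was -0.139 with ST045849 and 0.105 with siOGT at 24 hours, and these 2 differences are not taken relative to it. Without ST045849 replicate 1, ST045849 replicate 3 or siOGT replicate 1 the call for NDUFA12 was lost, and without vehicle replicate 1, scrambled replicate 1 or siOGT replicate 2 that for NDUFS7. With NDUFS7 the call was lost too with the compared groups alone (adjusted p = 0.0743) and with the time read from the array set, at 0.22 (adjusted p = 0.168). Scrambled arrays stood above vehicle arrays at this time by 0.17 for NDUFA12 (adjusted p = 0.393) and by 0.15 for NDUFS7 (adjusted p = 0.374). The difference between the effects equals ST045849 minus siOGT plus scrambled minus vehicle. By arithmetic it therefore contains these 0.17 and 0.15 in full, within the 0.39 and the 0.34.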

How the results depend on the processing

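With ST045849 at 12 hours the count of called members was 1 and became 3 with an array set effect in each treatment, and 2 with array weights, without background correction, with the processed values and with the mean of kept probes, and lay between 1 and 4 with single arrays left out (4 without ST045849 replicate 1). At 24 hours the count was 6 and became 11 with array weights, 13 with the time from the array set, 2 under median scaling (NDUFA6 and NDUFB1, both lower) and 1 with the compared groups alone, and lay between 1 and 8 with single arrays left out. With siOGT at 24 hours it was 0, and 1 (NDUFB9) with the time from the set. The replicate block gave 1 and 6 with ST045849 and 0 and 0 with siOGT, with NDUFA6 at 12 hours and the same 6 genes at 24 hours. Of all genes, 11% and 24.3% were called with ST045849 in the main fit, and 3.5% rose and 14.9% fell under median scaling at 24 hours. The share of all genes called is not given here for the other settings, so these counts do not compare members with other genes.

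Median scaling moved the members' median to -0.0527, -0.144, -0.0121 and 0.0681 in the 4 comparisons and that of all genes to -0.0357, -0.139, 0.0296 and 0.105. The members' median was 0.01005 with ST045849 at 24 hours with the mean of kept probes and -0.0477 with siOGT at 24 hours with the time from the set. With single arrays left out it lay between -0.0361 and 0.0123 and between 0.0073 and 0.0512 with ST045849, and between -0.0468 and -0.0125 with siOGT at 12 hours. No called change turned its direction. Of the values of single genes under alternatives, 2407 kept their side of the threshold, 30 gained a call and 47 lost one, and the cause was not tested. The effects averaged over both times were not run under alternatives. Dim probes such as NDUFC2, and 3 arrays a group, limit what could be called.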
